A study of Mus musculus with 6 samples.

Results

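The genes described here code for the subunits of voltage-gated sodium channels, epithelial sodium channels, voltage-gated calcium channels and HCN pacemaker channels, and for TRP channels of the TRPC, TRPM and TRPV families. Members were taken by gene symbol: a probe set had to be annotated to a single symbol that starts with Scn, Cacn, Hcn, Trpc, Trpm or Trpv followed by a letter or digit, with Trpc4ap, which codes for no channel, left out. A probe set is the group of short probes on the array that reads 1 transcript, and the one with the highest mean over the 6 arrays stood for its gene. This gave 58 genes among 18193 named genes, and these 58 genes had 126 of the 45037 probe sets tested. They fell into 8 sodium channel pore subunits, 3 sodium channel beta subunits, 3 epithelial sodium channel subunits, Scnm1, 23 calcium channel subunits, 2 HCN channels and 18 TRP channels. Scnm1 met the symbol rule although it codes for a splicing factor.

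The study profiled hearts of 9-month-old GRK2+/- mice and of their wild-type (WT) littermates, 3 hearts a group, with an Affymetrix expression array for each heart. GRK2+/- mice are heterozygous for the targeted allele Adrbk1tm1Mca, which disrupts the gene of G protein-coupled receptor kinase 2. The allele came from a B6.129 strain that had been backcrossed for many generations onto C57BL/6J, and WT littermates share that C57BL/6J background. The labels name no Cre, transgene or drug, and give no sex. Only the upper part of each heart was sampled, after arrest with potassium chloride, so that atrial, vascular, nerve and blood cells could contribute beside ventricular muscle. All 10 cardiomyocyte markers checked, among them Myh6, Tnnt2 and Ryr2, lay in the top decile of gene levels, the lowest at a mean of 12.8 on the log2 scale. Of 9 atrial markers, 6 lay below 7.24, the median over named genes, and 3 at or above it. Among the 6 were Myl7, at means of 5.61 in GRK2+/- hearts and 5.499 in WT hearts, and Sln, at 5.71 and 5.65. The 3 brighter ones were Nppa, at means of 9.97 in GRK2+/- hearts and 11.17 in WT hearts, Stard10, at 9.40 and 9.43, and Nr2f2, at 8.22 and 8.25. No probe set in the annotation was assigned to Grk2, so the genotype labels could not be checked on the targeted gene.

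Sodium channels carry the fast inward current that starts the action potential of a heart cell, and voltage-gated calcium channels admit the calcium that triggers contraction. HCN channels open on hyperpolarisation, bind cyclic AMP directly and help to set the rate of pacemaker cells, while TRP channels are mostly non-selective cation channels opened by stretch, lipids, calcium or receptor signalling. GRK2 phosphorylates G protein-coupled receptors once an agonist has activated them, and so dampens their signalling. The beta-adrenergic receptor acts through cyclic AMP and protein kinase A on cardiac calcium, sodium and HCN currents, which makes the levels of their subunit genes of interest in these hearts.

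Array medians lay between 6.25 and 6.31 on the log2 scale, and correlations between pairs of arrays between 0.99358 and 0.99673. The Actb control probe sets, which compare the 3′ with the 5′ end of the transcript as a sign of RNA quality, differed by 0.979 ± 0.080 in GRK2+/- hearts and by 0.777 ± 0.036 in WT hearts (log2, SD, n = 3 each), with no overlap between the groups. The part of this difference in the results that follow was not tested. In pieces of whole tissue, fewer cells of a type and less RNA per cell cannot be told apart.

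Differences between GRK2+/- and WT hearts were small in all 58 genes, and none passed the threshold. They ran from -0.25 for Cacng7, a gamma-type calcium channel subunit, to 0.38 for Scn7a, an atypical sodium channel. Both values are GRK2+/- minus WT on the log2 scale. At an adjusted p under 0.05 (limma, Benjamini-Hochberg over all named genes) 0 of the 58 genes were called, as were 0% of all named genes. The smallest adjusted p among the members was 0.0961, for Scn7a, which ranked 50 of 18193 genes by p. The 95% interval of the difference, unadjusted for the number of genes, lay inside a 1.5-fold change in either direction for 58 of the 58 genes (97.4% of all named genes), and inside a 1.25-fold change for 37 of them (63.8%, against 68.3% of all named genes). The half-width of these intervals had a median of 0.19 and ranged from 0.14 to 0.31. A smaller difference was thus not detectable in many of these genes with 3 hearts a group.

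At an unadjusted p under 0.05, 6 of the 58 genes (10.3%) were called, beside 14% of all named genes. Scn7a, Scn4b and Cacna2d1 were the 3 that were higher in GRK2+/- hearts (5.17%, beside 6.3% of all named genes), and Cacng7, Trpv4 and Cacng1 were the 3 that were lower (5.17%, beside 7.7%). Both shares lay under the background in this fit, but the lower share did not in every other fit. The lower count turned on single arrays: it was 7 without WT heart 1, 5 without GRK2+/- heart 1 or without GRK2+/- heart 3, and 2 without GRK2+/- heart 2 or without WT heart 3. Of all named genes, 8.85% were lower without WT heart 1, and 6.58% and 6.73% without GRK2+/- heart 1 or 3. Without GRK2+/- heart 2 or WT heart 3, 5.63% and 4.96% were lower. All 3 GRK2+/- values lay above all 3 WT values in 1 gene, Scn7a (1.72%, beside 7.44% of all named genes). They lay below all WT values in 5 genes, which were Cacng1, Trpv4, Cacnb2, Hcn2 and Trpm3 (8.62%, beside 11.6%). The difference was above 0 in 25 genes and below 0 in 33, with a median of -0.044, beside -0.019 over all named genes. In size the differences had a median of 0.091, beside 0.084 over all named genes.

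Most of these channel genes were dim on the arrays. The mean level lay under 7.24, the median over named genes, in 41 of the 58 genes and at or above it in 17. Of the 17 brighter genes, 4 were called at an unadjusted p under 0.05, 3 higher and 1 lower (23.5%, beside 16.1% of the 9097 named genes at or above that level). In a fit of those 9097 genes alone, 3 of the 17 were higher and 3 lower, beside 10% and 7.02% of the 9097. Of the 41 dimmer genes 2 were called, Cacng1 and Trpv4, both lower in GRK2+/- hearts (4.88%, beside 11.9% of dimmer genes, of which 8.94% were lower and 2.98% higher). Low RMA values hold mostly background signal, so the 41 dimmer genes bear less weight.

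**Figure D1:**
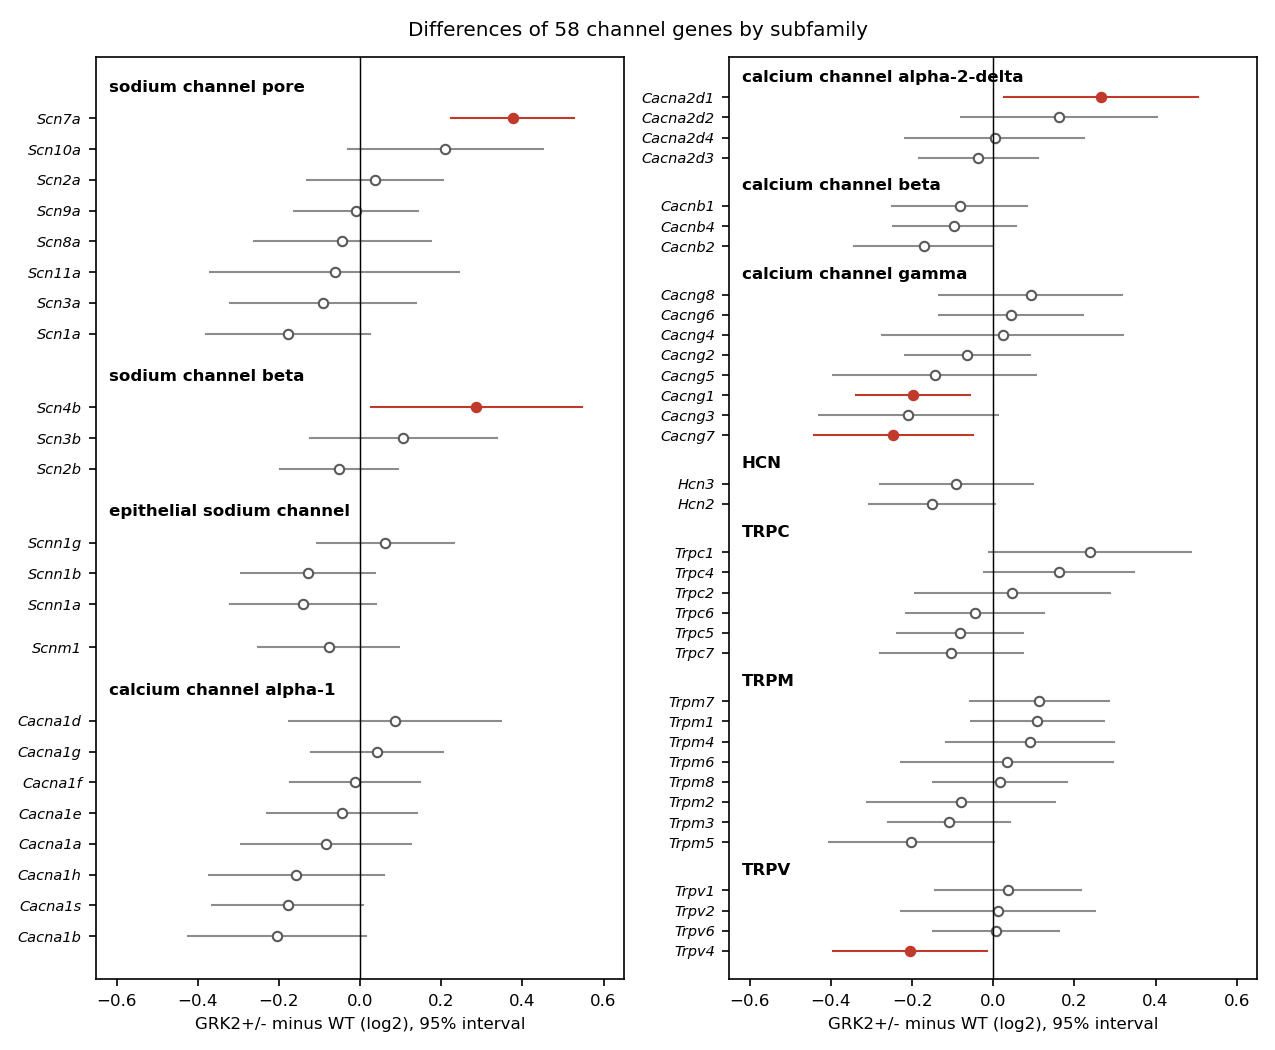
Difference of each of the 58 channel genes, GRK2+/- minus WT on the log2 scale, ordered by subfamily, with the 95% interval from limma as a bar. Filled red points mark the 6 genes at an unadjusted p under 0.05, and every interval lies inside a 1.5-fold change.

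Among the 8 sodium channel pore subunits, Scn7a stood at one end and the other 7 spread around 0. Scn7a codes for Nax, a channel related to the voltage-gated family that is known as a sensor of extracellular sodium in glia and is also made by non-myelinating Schwann cells. It read 8.64, 8.62 and 8.70 in GRK2+/- hearts, against 8.26, 8.23 and 8.35 in WT hearts. Every GRK2+/- heart lay above every WT heart, and the hearts within each group lay close together. The difference was 0.38 ± 0.07 (limma SE, n = 3 per group), a 1.30-fold higher level with an adjusted p of 0.0961. All 3 probe sets of Scn7a were higher in GRK2+/- hearts, by 0.38, 0.28 and 0.12, and their mean was higher by 0.26.

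Nerve and Schwann cell markers were set beside Scn7a because the gene is made by such cells. Of 8 Schwann cell markers measured, 1 was called at an unadjusted p under 0.05, Erbb3, a neuregulin receptor, which was higher by 0.26 ± 0.08. The mean level of these 8 markers ranged from 6.95 to 7.06 in GRK2+/- hearts and from 6.95 to 7.01 in WT hearts. The 1 of 8 was a share of 12.5%, beside 14% of all named genes. Of 13 neuronal markers, 1 was called (7.69%), Uchl1, with a difference of -0.31 ± 0.10, and their mean level ranged from 6.01 to 6.09 in GRK2+/- hearts and from 6.07 to 6.20 in WT hearts. The part of these cells in the Scn7a difference was not tested.

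The remaining pore subunits are known mostly from neurons. Scn10a, a channel of sensory neurons that has also been studied in the heart, read 5.75, 5.92 and 5.49 in GRK2+/- hearts, against 5.56, 5.58 and 5.39 in WT hearts. The groups overlapped, and the difference was 0.21 ± 0.11, or 0.11 without GRK2+/- heart 2. Scn1a differed by -0.18, Scn3a by -0.091, Scn11a by -0.063, Scn8a by -0.044, Scn9a by -0.011 and Scn2a by 0.036. Without WT heart 3, Scn11a differed by 0.11 and Scn8a by 0.059, so neither had a settled sign. None of these 7 genes reached an unadjusted p under 0.05 on the probe set that stood for it. All 5 Scn8a probe sets had differences below 0, and a dimmer one, at -0.19, was called at that level. A dimmer probe set of Scn3a differed by -0.16 and was also called. The median over the 8 pore subunits was -0.027.

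Scn7a lies in a cluster of related sodium channel genes on chromosome 2, in the order Scn3a, Scn2a, Scn1a, Scn9a and Scn7a, with 3 other protein-coding genes between Scn2a and Scn1a in the GRCm38.p6 gene table. Scn9a, next to it, differed by -0.011, with a 95% interval from -0.16 to 0.14 that did not reach the lower bound of the Scn7a interval, 0.22. Among protein-coding genes, Scn4b and Scn2b are neighbours on chromosome 9, and so are Scn10a and Scn11a.

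The beta subunits are single-pass membrane proteins with an immunoglobulin-like domain that tune the gating and surface expression of the pore. Scn4b read 9.49, 10.01 and 9.79 in GRK2+/- hearts, against 9.44, 9.44 and 9.55 in WT hearts. GRK2+/- hearts 2 and 3 lay above all WT hearts, and GRK2+/- heart 1 lay among them. The difference of 0.29 ± 0.12, 1.22-fold, had an adjusted p of 0.323, and it was 0.16 without GRK2+/- heart 2. Scn4b was not called at an unadjusted p under 0.05 without GRK2+/- heart 2 or 3, or without WT heart 1 or 2. Scn2b read 6.89, 6.83 and 6.91 in GRK2+/- hearts, against 6.90, 6.92 and 6.97 in WT hearts, a difference of -0.051 ± 0.065 with overlap. Scn3b differed by 0.11.

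The epithelial sodium channel, best known from the kidney tubule, lung and colon, has alpha, beta and gamma subunits. Scnn1a differed by -0.14 ± 0.08, Scnn1b by -0.13 ± 0.07 and Scnn1g by 0.062 ± 0.076. None of the 3 subunits reached an unadjusted p under 0.05. The splicing factor gene Scnm1 differed by -0.078 ± 0.078.

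Promoters are shown for 5 of the 6 genes at an unadjusted p under 0.05, those that the promoter table holds, with the 3 higher genes before the 2 lower ones, so that the start regions of genes with opposite differences can be compared. Each line gives 300 bases from the RefSeq table of GRCm38.p6, 250 before and 50 after the start, 5′ to 3′ on the gene's own strand, and capitals mark GC boxes (GGGCGG, or CCGCCC on the opposite strand). Scn7a is at chr2:66784861-66785160 on the minus strand, Scn4b at chr9:45138374-45138673 on the plus strand, Cacna2d1 at chr5:15934441-15934740 on the plus strand, Cacng7 at chr7:3332575-3332874 on the plus strand and Trpv4 at chr5:114658372-114658671 on the minus strand.
Scn7a: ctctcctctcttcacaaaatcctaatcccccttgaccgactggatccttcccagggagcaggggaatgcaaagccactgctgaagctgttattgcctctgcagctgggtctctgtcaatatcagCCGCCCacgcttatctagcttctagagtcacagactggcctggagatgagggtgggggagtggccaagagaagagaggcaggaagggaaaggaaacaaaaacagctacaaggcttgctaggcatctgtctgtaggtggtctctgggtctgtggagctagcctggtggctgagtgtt
Scn4b: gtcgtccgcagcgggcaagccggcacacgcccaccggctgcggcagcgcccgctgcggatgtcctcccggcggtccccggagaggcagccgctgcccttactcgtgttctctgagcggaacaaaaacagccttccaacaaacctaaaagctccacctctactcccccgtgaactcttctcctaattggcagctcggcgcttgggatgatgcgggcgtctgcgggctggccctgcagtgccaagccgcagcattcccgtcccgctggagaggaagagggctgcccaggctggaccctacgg
Cacna2d1: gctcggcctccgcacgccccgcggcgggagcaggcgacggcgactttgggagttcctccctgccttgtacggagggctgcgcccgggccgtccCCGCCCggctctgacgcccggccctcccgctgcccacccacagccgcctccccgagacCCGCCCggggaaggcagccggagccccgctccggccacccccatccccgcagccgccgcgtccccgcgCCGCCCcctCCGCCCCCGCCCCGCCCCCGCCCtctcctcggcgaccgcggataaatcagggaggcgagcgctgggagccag
Cacng7: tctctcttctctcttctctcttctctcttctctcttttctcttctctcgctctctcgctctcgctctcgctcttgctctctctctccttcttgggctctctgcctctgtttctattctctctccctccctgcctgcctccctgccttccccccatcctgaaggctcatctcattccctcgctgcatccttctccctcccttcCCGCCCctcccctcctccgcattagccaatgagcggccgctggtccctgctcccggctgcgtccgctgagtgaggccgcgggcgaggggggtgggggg
Trpv4: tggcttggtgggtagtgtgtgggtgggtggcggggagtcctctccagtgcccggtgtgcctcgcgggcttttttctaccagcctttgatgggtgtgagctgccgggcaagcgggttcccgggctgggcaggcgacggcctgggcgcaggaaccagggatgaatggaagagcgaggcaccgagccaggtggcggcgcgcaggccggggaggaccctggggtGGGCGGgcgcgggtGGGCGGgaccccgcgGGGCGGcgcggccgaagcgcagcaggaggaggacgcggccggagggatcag

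The Scn7a promoter held 54% G and C and few CpG dinucleotides, 0.14 of those its composition would give, with 1 GC box. Scn4b held 66.3% G and C, a CpG ratio of 0.80 and no GC box. The Cacna2d1 promoter was the richest of the 5, with 80% G and C, a CpG ratio of 0.92 and 7 GC boxes. Cacng7 held 62% with a CpG ratio of 0.62 and 1 GC box, in a window that opens with a run of short CT repeats. The Trpv4 promoter held 73% with a CpG ratio of 0.83 and 3 GC boxes close to the start. The 3 higher genes thus ranged from no GC box to 7, and the 2 lower genes lay between them.

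Over the whole set, 46 of the 58 genes matched the table, with 58 promoters among the 32851 listed, and Cacng1 was among the other 12. A GC box on either strand stood in 20 of the 58 promoters (34.5%, against 35.7% of all promoters), and a TATA box (TATAAA) in 6 (10.3%, against 13.6%). An E-box (CACGTG) stood in 2 (3.45%, against 7.15%). The cyclic AMP response element (TGACGTCA) stood in 0 of the 58, against 1.79% of all promoters. The E-box and the cyclic AMP response element share the letters ACGT, but neither holds the other, and a match describes the letters of the window only. The median G and C content was 57.3%, against 52.7% for all promoters.

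**Figure D2:**
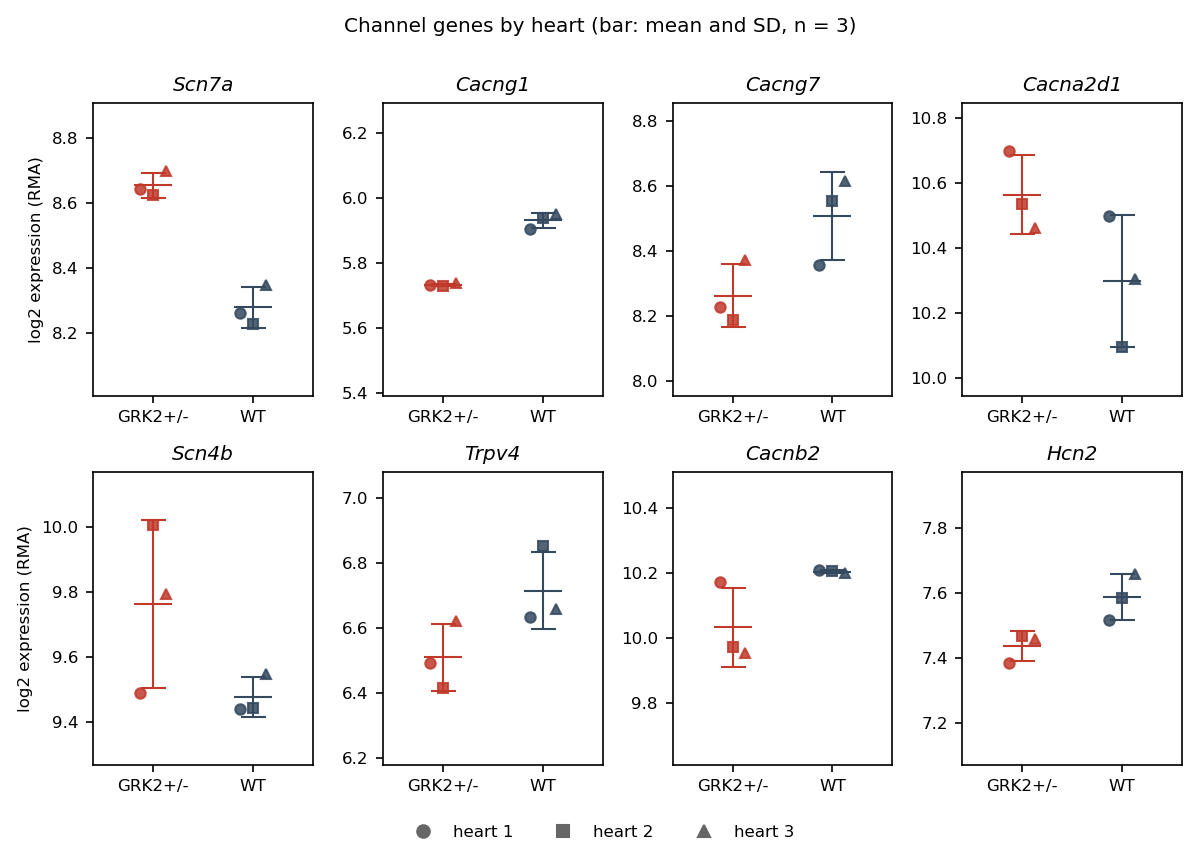
Level of 8 channel genes in each heart on the log2 scale (each panel has its own axis), GRK2+/- hearts on the left and WT hearts on the right of each panel; symbols are hearts 1 to 3, and bars are the group mean and SD (n = 3). Scn7a is higher in every GRK2+/- heart, while Scn4b in GRK2+/- hearts spans 9.49 to 10.01.

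Calcium channels are built from a pore-forming alpha-1 subunit with alpha-2-delta, beta and, in some tissues, gamma subunits. The 8 alpha-1 genes measured differed by -0.20 to 0.086, with a median of -0.064, and none reached an unadjusted p under 0.05. Cacna1d, the L-type pore of sinoatrial and atrial cells, read 6.96, 6.998 and 6.78 in GRK2+/- hearts, against 6.68, 7.11 and 6.70 in WT hearts. WT heart 2 was the highest of all, and the difference was 0.086 ± 0.117.

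The T-type pores Cacna1g and Cacna1h open at more negative voltages and are found in pacemaker tissue and the fetal heart. Cacna1g read 7.64, 7.57 and 7.58 in GRK2+/- hearts, against 7.60, 7.45 and 7.62 in WT hearts, a difference of 0.042 ± 0.073. Cacna1h read 6.51, 6.32 and 6.22 in GRK2+/- hearts, against 6.63, 6.36 and 6.53 in WT hearts, a difference of -0.16 ± 0.10. Both genes overlapped between the groups. Cacna1s, the L-type pore of skeletal muscle, read 6.62, 6.47 and 6.62 in GRK2+/- hearts, against 6.78, 6.61 and 6.85 in WT hearts. Only WT heart 2 lay inside the GRK2+/- range, and the difference was -0.18 ± 0.08.

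Of the neuronal and retinal pores, Cacna1b (N-type) differed by -0.20, Cacna1a (P/Q-type) by -0.083, Cacna1e (R-type) by -0.044 and the retinal L-type Cacna1f by -0.013. A dimmer probe set of Cacna1b differed by -0.31 and was called at an unadjusted p under 0.05.

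The alpha-2-delta subunits are extracellular proteins that bring the pore to the membrane, and Cacna2d1 is the form known from heart and skeletal muscle. Cacna2d1 read 10.70, 10.54 and 10.46 in GRK2+/- hearts, against 10.50, 10.09 and 10.30 in WT hearts. WT heart 1 lay inside the GRK2+/- range and the other WT hearts below it. The difference was 0.27 ± 0.11, 1.20-fold, with an adjusted p of 0.317, and it was 0.16 without WT heart 2. Cacna2d1 was not called at an unadjusted p under 0.05 without GRK2+/- heart 1, WT heart 2 or WT heart 3. The 5 probe sets of Cacna2d1 did not move together: the 2 brightest were higher by 0.27 and 0.30, and the others differed by -0.046, 0.0053 and -0.12. Their mean differed by 0.080 and was not called.

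Cacna2d2 read 7.39, 7.69 and 7.28 in GRK2+/- hearts, against 7.37, 7.35 and 7.16 in WT hearts, a difference of 0.16 ± 0.11 with overlap, or 0.045 without GRK2+/- heart 2. Cacna2d3 read 5.26, 5.30 and 5.25 in GRK2+/- hearts, against 5.32, 5.34 and 5.26 in WT hearts, a difference of -0.037 ± 0.065. These are alpha-2-delta forms best known from the nervous system. Cacna2d4 differed by 0.0033.

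The beta subunits sit on the inside of the membrane and promote trafficking of the pore. Cacnb2, the main beta subunit of heart muscle, read 10.17, 9.97 and 9.95 in GRK2+/- hearts, against 10.21, 10.21 and 10.20 in WT hearts. Every GRK2+/- heart lay below every WT heart, although GRK2+/- heart 1 lay just under them. The difference was -0.17 ± 0.08, with a 95% interval from -0.34 to 0.00013 and an adjusted p of 0.357. The second Cacnb2 probe set differed by -0.23 and the mean of both by -0.20. Both were called at an unadjusted p under 0.05, with adjusted p of 0.305 and 0.308 (limma). Cacnb1, the skeletal muscle form, read 6.77, 6.72 and 6.63 in GRK2+/- hearts, against 6.70, 6.87 and 6.80 in WT hearts, a difference of -0.083 ± 0.075 with overlap. All 4 Cacnb1 probe sets had differences below 0, from -0.29 to -0.026, and 2 of these were called at an unadjusted p under 0.05. Cacnb4 differed by -0.095, so all 3 beta subunits measured lay below 0, although the mean of the Cacnb4 probe sets differed by 0.0043.

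Gamma subunits are four-pass membrane proteins: Cacng1 and Cacng6 belong to muscle calcium channels, and several others are better known as partners of glutamate receptors in the brain. Cacng1 read 5.73, 5.73 and 5.74 in GRK2+/- hearts, against 5.90, 5.94 and 5.95 in WT hearts. The groups did not overlap and the hearts of each lay close together, at a low level on the array scale. The difference was -0.20 ± 0.06, 0.872-fold, with an adjusted p of 0.239. Skeletal muscle is where Cacng1 is best known. Of 11 markers of that tissue 1 was called, Myog, with a difference of -0.19 (9.09%, beside 14% of all named genes). The mean level of the 11 ranged from 6.14 to 6.23 in GRK2+/- hearts and from 6.16 to 6.21 in WT hearts.

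Cacng7 read 8.23, 8.19 and 8.37 in GRK2+/- hearts, against 8.36, 8.55 and 8.62 in WT hearts. GRK2+/- heart 3 lay level with WT heart 1, and the groups otherwise separated. The difference of -0.25 ± 0.09, 0.843-fold, had an adjusted p of 0.274. A dimmer second probe set of Cacng7 differed by 0.052, and the mean of both by -0.097, which was not called. Cacng7 was also not called without GRK2+/- heart 1 or 2, or without WT heart 2 or 3.

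Cacng6 read 6.17, 6.08 and 6.28 in GRK2+/- hearts, against 6.14, 6.05 and 6.22 in WT hearts, a difference of 0.044 ± 0.079 with overlap. Cacng6, Cacng7 and Cacng8 are neighbouring protein-coding genes on chromosome 7, and Cacng8 differed by 0.093. So are Cacng1, Cacng4 and Cacng5 on chromosome 11, where Cacng4 differed by 0.023 and Cacng5 by -0.14. Among the other gamma genes, Cacng3 differed by -0.21 (-0.10 without WT heart 3) and Cacng2 by -0.063. The median over the 8 gamma genes was -0.10.

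Of the HCN channels, 2 were measured. Hcn2, the main form in ventricular muscle and one of those in the sinoatrial node, read 7.38, 7.47 and 7.46 in GRK2+/- hearts, against 7.52, 7.58 and 7.66 in WT hearts. Every GRK2+/- heart lay below every WT heart. The difference was -0.15 ± 0.07, with a 95% interval from -0.31 to 0.0042 and an adjusted p of 0.368. Hcn3 differed by -0.091 ± 0.085 with overlap. Of 10 conduction system markers measured, 0 were called at an unadjusted p under 0.05, beside 14% of all named genes. Their median difference was -0.042, with 6 below 0 and 4 above. Their mean level ranged from 6.581 to 6.617 in GRK2+/- hearts and, just above, from 6.618 to 6.628 in WT hearts. The part of these cells in the Hcn2 difference was not tested.

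The 18 TRP genes had a median difference of 0.014, and 1 was called at an unadjusted p under 0.05 (5.56%, beside 14% of all named genes). This was Trpv4, a channel opened by stretch, swelling and lipid products in endothelium, fibroblasts and muscle. Trpv4 read 6.49, 6.42 and 6.62 in GRK2+/- hearts, against 6.64, 6.85 and 6.66 in WT hearts. The groups did not overlap, but GRK2+/- heart 3 lay just under WT heart 1. The difference was -0.21 ± 0.09, 0.867-fold, with an adjusted p of 0.33, and it was -0.14 without WT heart 2. Trpv4 was not called without GRK2+/- heart 1 or 2 or WT heart 2, nor with centred arrays, array weights, the most variable probe set, a prior that follows the mean level or the replicate block. Among markers of cells in which Trpv4 is known, 2 of 10 endothelial ones, Kdr and Tek, and 2 of 10 fibroblast ones, Col1a1 and Ddr2, were called, all higher in GRK2+/- hearts (20% of each list, beside 6.3% of all named genes). The lists were mixed: 4 of 10 endothelial markers were below 0, with Pecam1 (-0.12) and Esam (-0.15) lower without overlap, and 4 of 10 fibroblast markers were below 0, among them Lum (-0.18).

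The other 3 vanilloid-type channels differed by 0.0068 to 0.036. Trpv2, a channel of heart muscle and immune cells, read 7.47, 7.61 and 7.50 in GRK2+/- hearts, against 7.75, 7.47 and 7.31 in WT hearts. The WT hearts spanned more than the GRK2+/- hearts did, and the Trpv2 difference of 0.012 ± 0.107 ran from -0.088 to 0.13 when single hearts were left out. Trpv1, the capsaicin receptor, differed by 0.036 and Trpv6, a calcium-selective epithelial channel, by 0.0068.

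TRPC channels are opened downstream of receptors that activate phospholipase C. Trpc1 read 7.39, 7.63 and 7.73 in GRK2+/- hearts, against 7.53, 7.32 and 7.18 in WT hearts. GRK2+/- heart 1 lay inside the WT range and the other GRK2+/- hearts above it. The difference was 0.24 ± 0.11, with an adjusted p of 0.373, and a second, dimmer Trpc1 probe set differed by 0.017. Trpc6, a channel gated by diacylglycerol, read 3.97, 4.09 and 3.87 in GRK2+/- hearts, against 4.03, 4.04 and 3.98 in WT hearts, near the lowest values on the arrays. Its difference was -0.044 ± 0.076. Trpc4 differed by 0.16, Trpc7 by -0.10, Trpc5 by -0.082 and Trpc2 by 0.047.

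Of the melastatin-type channels, Trpm7 joins a channel permeable to magnesium and calcium with a kinase domain. Trpm7 read 8.78, 8.74 and 8.88 in GRK2+/- hearts, against 8.77, 8.69 and 8.58 in WT hearts, a difference of 0.11 ± 0.08 with overlap. Its 4 probe sets ran from -0.11 to 0.31, and the groups did not overlap at either end of this range. The probe set at 0.31, a dimmer one, was called at an unadjusted p under 0.05, and the one at -0.11 was not. Trpm4, a calcium-activated cation channel of heart muscle and the conduction system, read 7.29, 7.48 and 7.62 in GRK2+/- hearts, against 7.37, 7.47 and 7.28 in WT hearts. The groups overlapped, and its difference was 0.091 ± 0.093.

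The remaining 6 TRPM genes act mainly outside heart muscle. Trpm5, known from taste cells, differed by -0.20 with an adjusted p of 0.363. In Trpm3 the groups did not overlap, with a difference of -0.11 ± 0.07. Trpm1, from retinal bipolar cells, differed by 0.11, yet 2 of its dimmer probe sets differed by -0.30 and -0.23. Trpm2 differed by -0.080, Trpm6 by 0.034 and Trpm8 by 0.016.

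Probe sets of the same gene often pointed apart. Of the 58 genes, 34 had several probe sets and 24 had 1. All probe sets of a gene ran in 1 direction in 19 of the 34, and in both directions in 15. At an unadjusted p under 0.05, 6 of the 126 member probe sets were higher (4.76%, beside 5.44% of all probe sets) and 11 were lower (8.73%, beside 7.4%). At an adjusted p under 0.05, 0 of the 126 and 0% of all probe sets were called (limma, Benjamini-Hochberg over all probe sets), and the smallest adjusted p among the 126 was 0.143.

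**Figure D3:**
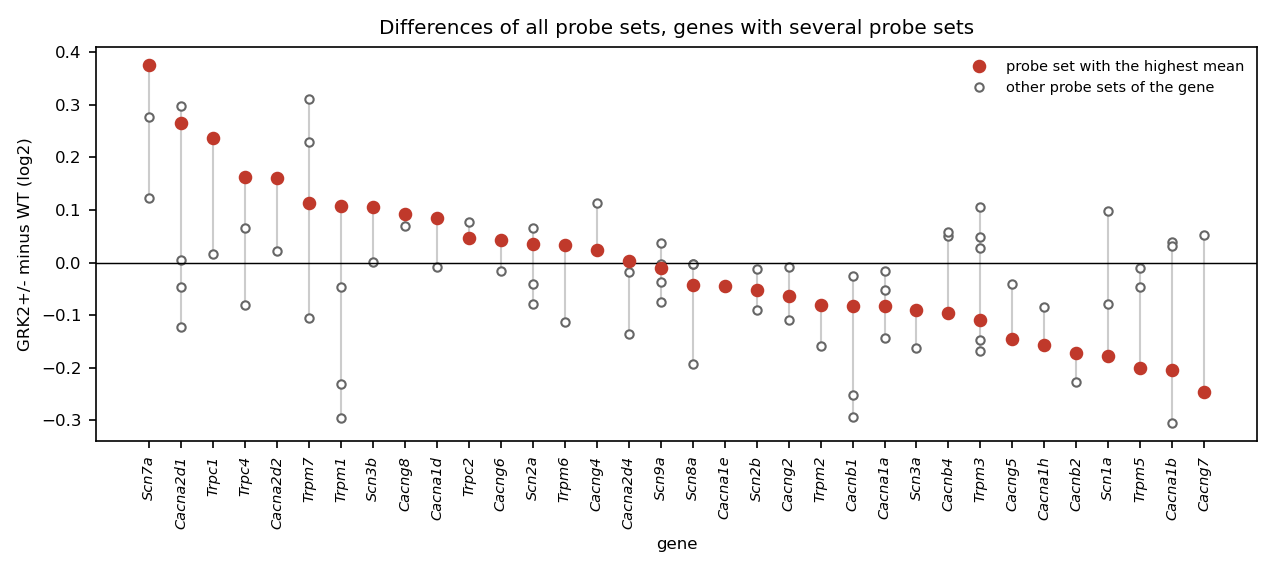
Difference, GRK2+/- minus WT on the log2 scale, of every probe set of the 34 channel genes that have several; filled points are the brightest probe set, which stands for the gene, and open points the others. Scn7a lies above 0 in all 3 probe sets and Cacnb1 below 0 in all 4, while Cacna2d1 runs from -0.12 to 0.30.

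The members differ from other genes in length, which the symbol rule did not use: their gene span had a median of 69.4 kb, against 20.2 kb over 18145 named genes. Across the 58 genes, which come from the same 6 arrays, span and difference had a Pearson r of 0.037 and a Spearman rho of 0.0094, given as a description. Over the 18145 named genes these were 0.144 and 0.165, so longer genes tended to have higher differences there.

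Lists of genes linked to these channels were set beside them. The lists are broader than proteins that bind the channels or set their level at the membrane. The HCN list also holds the transcription factor genes Tbx3, Tbx18, Shox2 and Isl1. Among 16 calcium channel partners measured, 4 were higher and 1 lower at an unadjusted p under 0.05 (25% and 6.25%, beside 6.3% and 7.7% of all named genes). Rrad, a small GTPase of the RGK family that holds L-type calcium channels in check and is released when protein kinase A phosphorylates it, read 10.84, 10.73 and 11.04 in GRK2+/- hearts, against 10.13, 10.30 and 10.38 in WT hearts. Every GRK2+/- heart lay above every WT heart. The difference was 0.60 ± 0.10, larger than that of any channel gene, with an adjusted p of 0.0912 and rank 22 by p among 18193 genes. Its adjusted p was 0.0336 where the prior spread of the fit was allowed to follow the mean level. Rrad has 1 probe set.

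Gem, another RGK protein, read 4.93, 4.96 and 5.25 in GRK2+/- hearts, against 4.92, 4.72 and 4.72 in WT hearts, at a low level on the array scale. Its difference was 0.26 ± 0.10, and 0.16 without GRK2+/- heart 3; it was not called without that heart or without WT heart 2 or 3. Akap5, which anchors protein kinase A near channels, was higher by 0.22 ± 0.08, and the mean of its 3 probe sets by 0.14, but Akap5 was not called without GRK2+/- heart 2 or WT heart 3. Stac, an adaptor that binds L-type channels, read 6.15, 6.04 and 6.19 in GRK2+/- hearts, against 6.32, 6.48 and 6.40 in WT hearts. These groups did not overlap, and its difference was -0.28 ± 0.07, with an adjusted p of 0.199.

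Of 19 sodium channel partners measured, 1 was higher and 1 lower at an unadjusted p under 0.05 (5.26% each, beside 6.3% and 7.7% of all named genes), with a median difference of 0.0012. Gja1, the main ventricular connexin, which sits with sodium channels at the intercalated disc, read 13.44, 13.46 and 13.57 in GRK2+/- hearts, against 13.12, 13.36 and 12.89 in WT hearts. All 6 of its probe sets were higher, and the difference was 0.37 ± 0.11 with an adjusted p of 0.219. Fgf14, an intracellular growth factor homologue that binds the tail of the pore, differed by -0.32 ± 0.09, and the mean of its 4 probe sets, which was not called, by -0.11.

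Of 12 genes measured on the HCN list, 2 were lower at an unadjusted p under 0.05 (16.7%, beside 7.7% of all named genes). Both code for Popeye domain proteins, which bind cyclic AMP in heart muscle, and a link of either to HCN channels was not tested. Popdc2 differed by -0.17 ± 0.07, and Bves, also called Popdc1, by -0.16 ± 0.07. Neither gene overlapped between the groups, although the mean of both Bves probe sets differed by -0.058. Popdc2 and Bves were not called with centred arrays, the most variable probe set or the replicate block. Without single hearts, Popdc2 was not called in 3 of 6 cases and Bves in 4 of 6. Of 18 other TRP and store-operated channel genes, 1 was lower (5.56%, beside 7.7%), Orai2, by a difference of -0.17 ± 0.07, and the mean of its 2 probe sets, which was not called, differed by -0.050. Orai2 was not called in 4 of 6 cases when single hearts were left out, nor with centred arrays, quantile scaling, the most variable probe set or the replicate block. At an adjusted p under 0.05, 0 genes in these 4 lists were called.

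**Figure D4:**
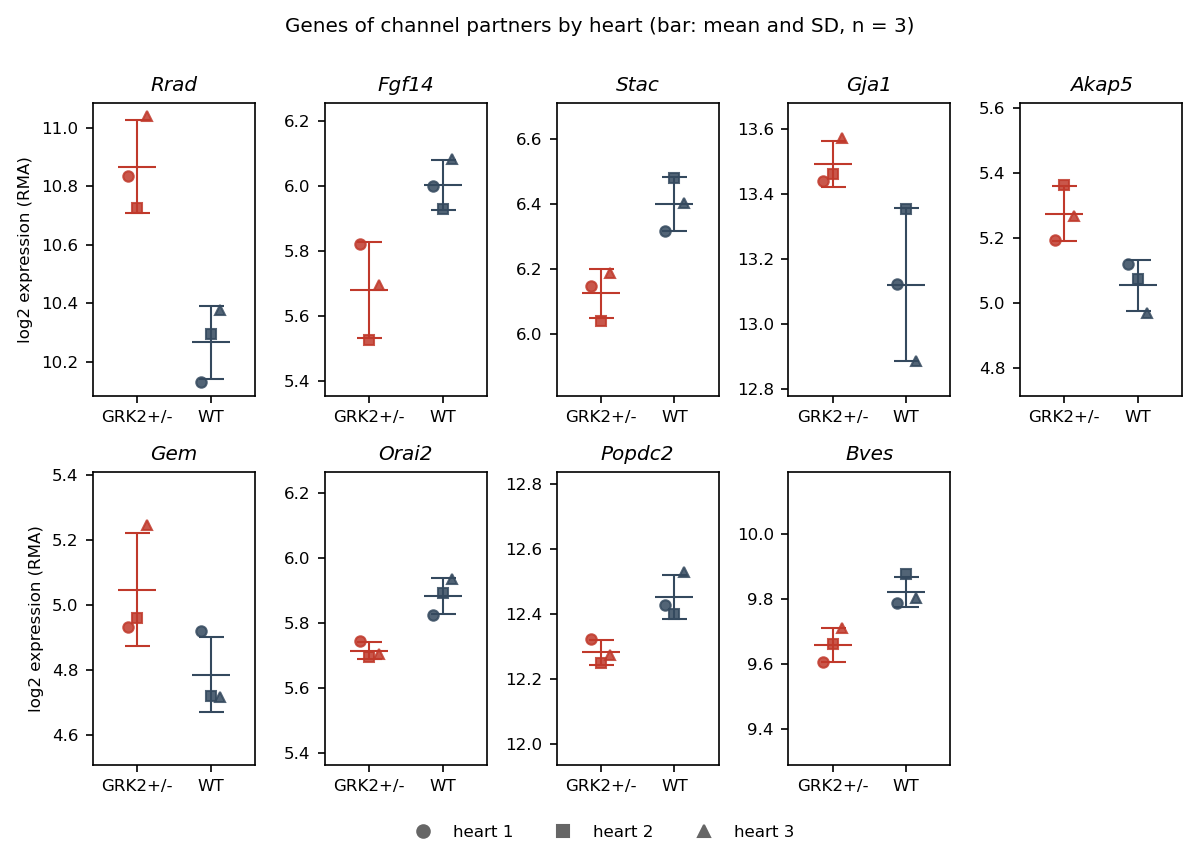
Level in each heart, on the log2 scale, of the 9 genes named from the partner lists at an unadjusted p under 0.05. Each panel has its own axis, with GRK2+/- hearts on the left and WT hearts on the right. Symbols are hearts 1 to 3, and bars are the group mean and SD (n = 3). In Rrad the GRK2+/- hearts lie between 10.73 and 11.04, above all WT hearts.

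Markers of other cell types differed between the groups too, and their part in the channel values was not tested. Of 13 smooth muscle and pericyte markers 4 were higher at an unadjusted p under 0.05, Myh11 (0.47), Notch3 (0.36), Pdgfrb (0.31) and Abcc9 (0.23), a share of 30.8% beside 6.3% of all named genes. Another 5 were below 0, the lowest being Cspg4 at -0.17. The mean level of the 13 ranged from 9.59 to 9.69 in GRK2+/- hearts and from 9.50 to 9.54 in WT hearts. Of 11 leukocyte markers 4 were higher (36.4%, beside 6.3%), S100a9 (2.25), S100a8 (1.97), Ptprc (0.42) and Lyz2 (0.19), and another 4 were below 0. Their mean level of 8.38 to 8.68 in GRK2+/- hearts and of 7.998 to 8.21 in WT hearts rested on S100a8 and S100a9, chosen after their values were seen. Without these the mean of the other 9 was 8.32 to 8.39 in GRK2+/- hearts and 8.23 to 8.37 in WT hearts. Of 9 atrial markers 1 was higher, Nr2f1 (0.18), and 2 were lower, Nppa, the atrial natriuretic peptide, at a difference of -1.20 ± 0.27 and Bmp10 at -0.19. These were shares of 11.1% and 22.2%, beside 6.3% and 7.7% of all named genes, and 5 of the 9 markers were above 0. Their mean level ranged from 7.02 to 7.13 in GRK2+/- hearts and from 7.16 to 7.18 in WT hearts. Without Nppa, chosen after its values were seen, the mean of the other 8 ranged from 6.69 to 6.79 in GRK2+/- hearts and from 6.63 to 6.71 in WT hearts. Endothelial markers had a mean level of 9.48 to 9.54 in GRK2+/- hearts and of 9.34 to 9.50 in WT hearts, and fibroblast markers had one of 9.76 to 9.90 in GRK2+/- hearts and of 9.68 to 9.83 in WT hearts. Of 9 ventricular markers 1 was lower, Myh7, with a difference of -0.78 (11.1%, beside 7.7% of all named genes). Of 7 adipocyte markers 0 were called, beside 14% of all named genes, and 5 were below 0. Their mean level ranged from 5.35 to 5.41 in GRK2+/- hearts and from 5.43 to 5.49 in WT hearts, at a low level on the array scale. Of the 10 cardiomyocyte markers 1 was higher (10%, beside 6.3%). This was Ryr2, the calcium release channel of the sarcoplasmic reticulum, by 0.35 ± 0.08 without overlap.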

How the data were processed

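RNA of 6 hearts (3 GRK2+/-, 3 WT) was measured, each on an Affymetrix array. The deposited log2 values were made by the authors with RMA, and limma was used, per the submitters' processing notes. The sources used here give no versions. RMA summarises probes after background correction and quantile scaling, which compresses differences of dim probe sets. Of 45101 deposited rows, 64 control probe sets were left out. Of the 45037 tested, 34945 had 1 gene symbol, updated through RefSeq (GRCm38.p6), which gave 18193 genes. 1 calcium channel subunit gene is not reported here.

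GRK2+/- minus WT differences came from limma 3.58.1 in R 4.3.3 (lmFit and eBayes, two-sided, no trend or robust prior, no covariate), with Benjamini-Hochberg adjustment over all 18193 genes, or over all 45037 probe sets, and calls at an adjusted p under 0.05. The error of a difference is its limma standard error, and that of a group its SD. The labels give the hearts as separate samples. A p-value here sets the group difference against the spread between hearts, which limma draws in part from all genes. An exact permutation test between groups of 3 has 0.1 as its smallest two-sided p. The fit was tested on simulated data.

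The members, the partner and marker lists and the rule for named genes were chosen with earlier results of these data known. Values of every heart are given for members at an unadjusted p under 0.05 without overlap, for 21 measured members described in the heart, and for other genes the text turns on; of a partner or marker list, members at an unadjusted p under 0.05, up to 4 by p, are named. Motifs were searched on both strands of RefSeq promoters. Alternatives were array centring, quantile scaling, other probe set choices, other priors, array weights, a level filter, removal of a trend on gene span, a replicate block and leaving out each heart. Precision is limited by the number of arrays.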

Additional observations from a re-analysis of the deposited data

How the results depend on the processing

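At an adjusted p under 0.05 (limma), 0 of the 58 channel genes were called under each alternative that gave a p-value (removing the trend on gene span gave differences only), while over all genes the count was 0 with the values as deposited and 12 with the most variable probe set, 42 with a prior that follows the mean level, 12 with array weights, 6 among the 9097 genes at or above the median level, 1 with the replicate block, and 56, 3 and 4 without GRK2+/- heart 1, 2 or 3. Rrad was among those with the prior that follows the mean level, at an adjusted p of 0.0336 (0.0336 to 0.328 over its alternatives, differences 0.51 to 0.67). Scn7a ranged from 0.26 to 0.41, with adjusted p from 0.062 to 0.328. The median difference of the members, -0.044, was -0.015 with centred arrays, -0.022 with quantile scaling, -0.061 with the trend on gene span taken out, 0.012 over the 17 brighter members, and -0.070 to -0.023 when single hearts were left out. The count of members higher at an unadjusted p under 0.05, 3, became 5 with centred arrays and 5 with quantile scaling. Of all named genes, 8.5% and 7% were higher in these settings. The lower count, 3, was 5 with quantile scaling, 6 with the mean of probe sets, 6 with the most variable probe set, 6 with array weights, and 2 to 7 when single hearts were left out. In the same order, 7.48%, 8.34%, 8.3%, 8.21% and 4.96% to 8.85% of all named genes were lower. Over all genes, centring turned 6.3% higher and 7.7% lower into 8.5% higher and 4.89% lower, and the median from -0.019 to 0.010. Deviations of hearts of the same number had correlations of -0.18, -0.0051 and 0.016, and those of different numbers ran from -0.16 to 0.16. With 3 hearts a group, these values cannot exclude a pairing by number. With the replicate block the members gave 4 higher and 5 lower, beside 5.69% and 6.83% of all named genes. The unadjusted call of Trpv4 was lost with centred arrays, the most variable probe set, the prior that follows the mean level, array weights and the replicate block. Signs turned under at least 1 setting in 24 of the 58 genes, none of them among the 6 at an unadjusted p under 0.05. Leaving out single hearts gave -0.16 to 0.017 for Cacna1a, -0.11 to 0.0045 for Cacna1e, -0.042 to 0.036 for Cacna1f, -0.012 to 0.075 for Cacna1g, -0.095 to 0.062 for Cacna2d4, -0.13 to 0.13 for Cacng4 and -0.0085 to 0.092 for Cacng6. It gave -0.0052 to 0.17 for Cacng8, -0.16 to 0.11 for Scn11a, -0.0046 to 0.092 for Scn2a, -0.10 to 0.059 for Scn8a, -0.041 to 0.014 for Scn9a, -0.066 to 0.15 for Trpc2 and -0.10 to 0.011 for Trpc6. For the others it gave -0.17 to 0.0052 for Trpm2, -0.068 to 0.13 for Trpm6, -0.017 to 0.068 for Trpm8, -0.013 to 0.096 for Trpv1, -0.088 to 0.13 for Trpv2 and -0.021 to 0.053 for Trpv6. Centred arrays gave 0.016 for Cacna1f and 0.018 for Scn9a. Quantile scaling gave 0.018 for Cacna1f, 0.00024 for Cacna2d3 and 0.022 for Scn9a. The mean of probe sets gave -0.051 for Cacna2d4, 0.0043 for Cacnb4, -0.0044 for Scn2a, -0.12 for Trpm1 and -0.040 for Trpm6. The most variable probe set gave -0.14 for Cacna2d4, 0.051 for Cacnb4, -0.080 for Scn2a, -0.30 for Trpm1 and 0.11 for Trpm3. Array weights gave -0.018 for Cacna2d4, -0.0030 for Cacng4 and -0.0048 for Trpv6. Removing the trend on gene span gave -0.044 for Cacna2d4, -0.010 for Cacng4, -0.012 for Scn2a, -0.015 for Trpm6 and -0.025 for Trpm8. Causes of these shifts were not tested. Dim signal limits 41 of the 58 genes.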
